A study of Homo sapiens with 6 samples.

Results

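GFI1, GFI1B, KDM1A and RCOR1 encode the GFI1 repressors and the core of the LSD1 complex that they recruit. These 4 genes were examined, among 20110 protein-coding genes on GRCh37 and 20037 on GRCh38, in ChIP-Seq peak lists of OCI-AML3, an established human cell line with mutant NPM1 (mtNPM1) that was derived from acute myeloid leukemia (AML). For each gene, the peaks of the gene body and of 20 kb on either side were taken. For GFI1, peaks up to 50 kb from the gene were listed as well, on both sides. The neighboring gene EVI5 lies upstream of GFI1, with its 3′ end 21.771 kb from the GFI1 start, and not downstream. The lists held 65 such peaks for H3K27Ac in sgNeg and 55 in sgNpm1A, and 55 for H3K4me3 in sgNeg and 7 in sgNpm1A. With the longer sides of GFI1 these numbers were 71, 60, 56 and 7.

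All cells were OCI-AML3, transfected with a guide RNA, either the control sgNeg or sgNpm1A, which is directed at mtNPM1, without any other agent, and per the labels cultured for 3 days. The text of the study gives a longer time. OCI-AML3 is a single line that, per the study, also carries mutations of DNMT3A and NRAS in both groups, and neither the share of edited cells nor the level of mtNPM1 can be read from a peak list. H3K27Ac, the acetylation of lysine 27 on histone H3, is found at enhancers and promoters in use, and H3K4me3, the trimethylation of lysine 4, at promoters in use. There was 1 library per mark and guide RNA, and the 2 input libraries were not analysed here. As no group had a replicate, differences between the guides carry no p-value and describe only the libraries compared. Fewer cells carrying a mark and less of the mark per cell cannot be told apart in such bulk libraries.

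GFI1 and GFI1B are zinc finger proteins that bind DNA and silence nearby genes. Their SNAG domain resembles the tail of histone H3 and holds the lysine demethylase LSD1, the product of KDM1A, which removes methyl groups from lysine 4 of histone H3. RCOR1 encodes CoREST, the scaffold that joins LSD1 to the histone deacetylases HDAC1 and HDAC2 and lets it act on nucleosomes. GFI1 is best known for its part in granulocyte development and in blood stem cells, and GFI1B for its part in red cells and platelets. GFI1 also represses its own gene and GFI1B. LSD1 inhibitors, which separate LSD1 from GFI1, make AML cells differentiate.

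The peak lists differed as a whole, and every member value has to be read against this. Between 106641 and 353628 peaks were listed per library, and the narrowest peak ranged from 110 to 245 bp. The fragments expected over any base, the background, were inferred from the deposited values of the peaks and ranged from 2.15 to 3.81. A promoter peak was a peak within 1 kb of an annotated start of the gene. A promoter peak with a q-value under 1e-05 was listed for 35.6% of coding genes for H3K27Ac in sgNeg but for 0.905% in sgNpm1A, and for H3K4me3 for 53.4% in sgNeg and 1.62% in sgNpm1A. Strong promoter peaks were therefore rare in both sgNpm1A lists at coding genes in general. Of 6 myeloid marker genes, all 6 had an H3K27Ac promoter peak and 5 an H3K4me3 promoter peak in sgNeg, including SPI1 and CEBPA at a q-value under 1e-05 in both marks. In sgNpm1A these counts were 4 and 0. None of the 9 marker genes of erythroid, B, T, epithelial or liver cells had a promoter peak of that strength in sgNeg, whereas CD3D had 1 for H3K4me3 in sgNpm1A. The file names of the 2 marks carry different tags of unstated meaning, and whether both marks come from the same cell stock was not settled.

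The promoters of the members are shown first because the strongest sgNeg peaks of each member region lay at or beside them. The sequences are from the RefSeq promoter table of GRCh38.p14, in which all 4 members were found, and cover bases upstream of a start that lie outside annotated untranslated regions, written 5′ to 3′ along the gene's strand. Capitals mark matches, on either strand, to the letters CCGGAA (the core of ETS factor sites) or GGGCGG (a GC box, CCGCCC on the other strand). The core of GFI1 sites was searched for as AAATCA. Sites of GATA factors were searched for as TGATAA, and also in the form AGATAA. RUNX sites were searched for as TGTGGT. The GFI1B stretch, which lies between its first start and that of TSC1, has no capitals. A match is a run of letters and not a bound site. The GFI1 stretch is chr1:92486926-92487175 on the minus strand and the GFI1B stretch chr9:132945376-132945530, each upstream of the first start of its gene. The KDM1A stretch is chr1:23019218-23019442 and the RCOR1 stretch chr14:102592399-102592648. GFI1B, KDM1A and RCOR1 lie on the plus strand.
GFI1: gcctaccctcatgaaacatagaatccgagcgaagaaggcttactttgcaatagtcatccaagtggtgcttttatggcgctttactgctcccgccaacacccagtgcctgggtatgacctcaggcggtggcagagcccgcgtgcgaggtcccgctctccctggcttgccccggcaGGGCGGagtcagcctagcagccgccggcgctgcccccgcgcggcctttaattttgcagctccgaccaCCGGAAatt
GFI1B: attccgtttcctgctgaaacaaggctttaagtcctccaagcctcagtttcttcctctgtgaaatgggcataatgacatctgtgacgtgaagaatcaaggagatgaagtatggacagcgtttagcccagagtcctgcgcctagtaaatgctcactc
KDM1A: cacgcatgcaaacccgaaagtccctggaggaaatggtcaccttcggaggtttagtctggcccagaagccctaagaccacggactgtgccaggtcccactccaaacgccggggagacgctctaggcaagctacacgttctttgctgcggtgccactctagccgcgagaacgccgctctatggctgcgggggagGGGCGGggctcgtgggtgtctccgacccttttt
RCOR1: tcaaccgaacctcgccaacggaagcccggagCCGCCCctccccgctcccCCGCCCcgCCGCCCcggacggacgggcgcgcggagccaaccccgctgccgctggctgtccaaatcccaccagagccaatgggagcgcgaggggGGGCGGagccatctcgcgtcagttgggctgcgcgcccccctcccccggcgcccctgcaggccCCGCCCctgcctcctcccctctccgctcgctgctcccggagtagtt

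The 4 promoters differed in base composition. Over 250 bases upstream of the start, RCOR1 held 30 CpG dinucleotides and KDM1A 23, GFI1 held 19 at its first start, and GFI1B held 5 at its first start and 9 at its second. The median of the 35116 promoters in the table was 11. The GC box was matched 5 times at RCOR1, and 1 time at KDM1A and at each of the 3 GFI1 starts, and 42.6% of all promoters held at least 1 match. The ETS letters were matched 9 bases before the first GFI1 start, where 14.5% of promoters had a match somewhere in their 250 bases, and also upstream of the last GFI1 start. The GFI1 core letters AAATCA, which 11.6% of promoters held, had no match in the windows of the 3 GFI1 starts, of KDM1A and of RCOR1. They were matched 1 time at each of the GFI1B starts, in a part that is not printed because it is annotated as untranslated. The second GFI1B start also held 1 GATA match, TGATAA, as did 14.6% of promoters with either GATA motif. A RUNX match was found only at the second GFI1 start, 47 bases upstream of it, and 11% of promoters held one.

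GFI1 stood out among the members in the sgNeg lists by the width of its peaks. GFI1 (ENSG00000162676, GRCh37 chromosome 1, 92938600 to 92952482, minus strand) had an H3K27Ac peak of 10756 bp in sgNeg that ran from 92943473 to 92954228 and took in all 7 annotated starts and most of the gene. Its fold enrichment over background was 8.65, which ranked 362 of 327715 peaks by fold and 670 by width. For H3K4me3 (GRCh38 chromosome 1, 92481984 to 92486816) the sgNeg peak was 4833 bp wide, began 109 bp inside the first start and covered the other 2 starts. It was the 13th widest of 353628 peaks, and ranked 1072 by fold with 11.0-fold enrichment and 52 fragments over its summit. Among the 13438 genes with an H3K4me3 promoter peak in sgNeg, only 6 had a wider one, and the median was 715 bp. For H3K27Ac, GFI1 ranked 508 of 15939 by the same measure.

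In sgNpm1A no H3K4me3 peak was listed in the GFI1 gene or within 50 kb of it on either side. A peak with the same 11.0-fold enrichment would have had 42.3 fragments over the background of that library, whose list goes down to 10 fragments and a fold of 2.80. An H3K4me3 signal at GFI1 below that limit cannot be told from none. For H3K27Ac, 6 peaks were listed in the GFI1 region in sgNpm1A, of 158 to 888 bp and of 2.68- to 3.37-fold enrichment. Both peaks near a GFI1 start were narrow, at 325 bp and 2.86-fold (92950390 to 92950714) and at 339 bp and 2.79-fold, and ranked 194428 and 232239 of 317059 by fold. No H3K27Ac peak lay within 1 kb of the first GFI1 start. All 6 overlapped a wider sgNeg peak, but in no pair did the overlap reach 0.5 of the width of both peaks.

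**Figure D1:**
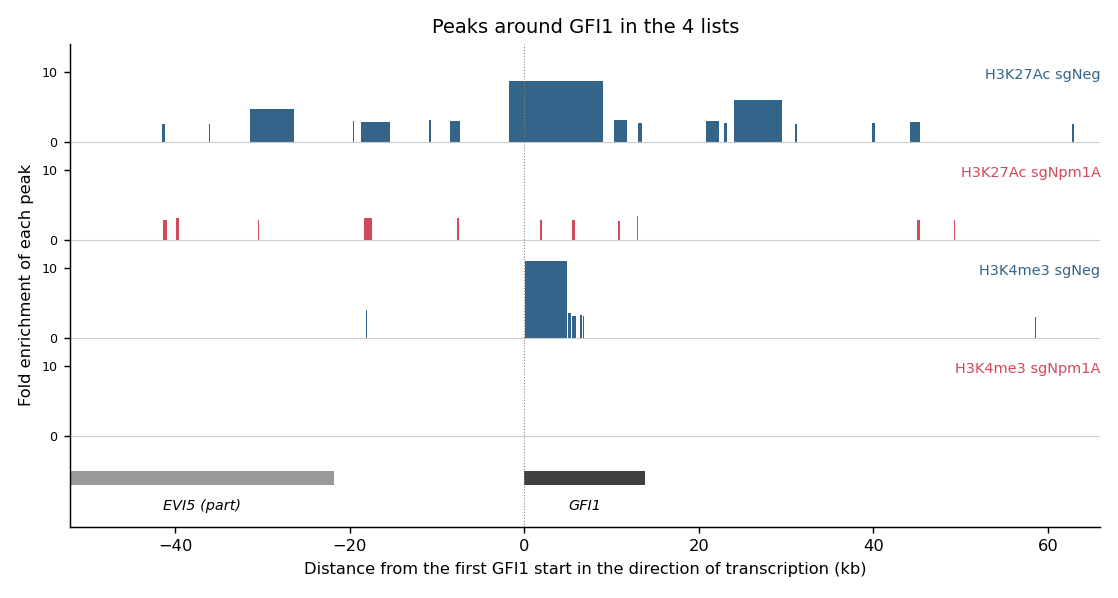
Peaks around GFI1 in the 4 lists (1 library each), drawn as boxes with the distance from the first GFI1 start in kb along the x axis (positive in the direction of transcription) and fold enrichment as height, above the gene (dark) and part of EVI5 (grey). In sgNeg, boxes of 10756 bp (H3K27Ac) and 4833 bp (H3K4me3) lie at the start of the gene, whereas in sgNpm1A only narrow H3K27Ac boxes and no H3K4me3 box are seen.

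The share of the region under peaks, which does not use the fold values, showed the same order. H3K27Ac peaks covered 46.6% of the GFI1 region in sgNeg and 3.89% in sgNpm1A, a 12.0-fold lower share. GFI1 ranked 1406 of 20110 genes by this share in sgNeg and 12871 in sgNpm1A. The ratio of sgNpm1A to sgNeg was 0.0833, against a median of 0.722 over 19071 genes with a sgNeg peak, and 5.02% of these genes had a lower ratio. A share lower by at least 2-fold was seen in 31.5% of genes. For H3K4me3 the share was 11.1% in sgNeg (rank 3151 of 20037) and 0 in sgNpm1A, where 28.2% of all coding genes were also at 0.

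The gene body and both flanks of GFI1 took part in this difference. H3K27Ac covered 79.2% of the gene body in sgNeg and 7.14% in sgNpm1A. On the 50 kb downstream of the gene the shares were 18.6% and 0.906%, and on the 50 kb upstream, toward and into EVI5, they were 24.4% and 4.30%. A pair of wide distal sgNeg peaks accounted for much of the flanks. The downstream one (92922909 to 92928440) was 5532 bp wide with 5.99-fold enrichment, ranked 2743 by fold and 3123 by width, and had no overlapping sgNpm1A peak. The upstream one (92978841 to 92983899), 26.4 to 31.4 kb from the GFI1 start in the 3′ part of EVI5, was 5059 bp wide with 4.78-fold enrichment and ranked 6750 by fold. A single sgNpm1A peak of 169 bp and 2.82-fold lay inside it. Another wide peak, 15.4 to 18.7 kb upstream of GFI1 and outside any coding gene, was 3327 bp wide but weak at 2.86-fold, and a sgNpm1A peak of 888 bp and 3.13-fold lay within it. H3K4me3 was nearly absent from both 50-kb flanks in sgNeg, with 0.326% upstream and 0.222% downstream.

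Stitching neighboring H3K27Ac peaks, at the distance customary in the search for super-enhancers, joined 16 sgNeg peaks around GFI1 into 1 region of 86.9 kb. It ranked 772 of 49245 stitched regions by the sum of peak width times fold and was among the 1142 regions past the bend of the ranked curve. The best sgNpm1A region over GFI1 ranked 8460 of 52913 and was not among the 989 past the bend. With a shorter stitching distance of 5 kb the ranks were 1182 of 107881 in sgNeg and 57079 of 120270 in sgNpm1A.

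GFI1B, the paralog of GFI1 (ENSG00000165702, GRCh37 chromosome 9, 135819387 to 135867074, plus strand), differed from it. Its strongest sgNeg peaks lay at its first start, next to the oppositely oriented gene TSC1, which encodes a subunit of the complex that restrains mTORC1. The H3K27Ac peak (135819238 to 135820875) was 1638 bp wide with 5.10-fold enrichment, ranked 5322 by fold, and lay at starts of both genes. The H3K4me3 peak (GRCh38, 132943632 to 132944537) was 906 bp wide with 10.8-fold enrichment and ranked 1183. It lay inside TSC1 and ended 994 bp before the first GFI1B start, whereas the RefSeq TSC1 start lies 0.153 kb upstream of that GFI1B start. These peaks therefore cannot be assigned to GFI1B alone. The second cluster of GFI1B starts (GRCh37, 135854038 to 135854098, and GRCh38, 132978694) had no peak within 1 kb in any of the 4 lists.

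H3K27Ac around GFI1B was spread over more, weak peaks in sgNpm1A. There were 15 peaks in sgNeg and 20 in sgNpm1A, covering 7.41% and 13.5% of the region. The ratio of 1.82 was above that of 87.8% of genes, and GFI1B ranked 11565 in sgNeg and 6037 in sgNpm1A. The enrichment of the sgNpm1A peaks was at most 3.82-fold, and the widest (135868725 to 135870571, 1847 bp, just downstream of the gene) was at 2.76-fold. A share higher by at least 2-fold was seen in 10.2% of genes, and GFI1B did not reach it. With peaks of at least 4-fold alone, the share was 1.87% in sgNeg and 0 in sgNpm1A, which turned the direction. The stitched region over GFI1B ranked 8080 in sgNeg and 897 in sgNpm1A. It was past the bend of the ranked curve in sgNpm1A and not in sgNeg. In sgNpm1A it joined 52 peaks over 240.7 kb, of which 13.9% was under peaks, and with stitching over 5 kb GFI1B ranked 12154 and 6943 and was past the bend in neither list. For H3K4me3 the share was 5.61% in sgNeg and 1.25% in sgNpm1A, where 3 peaks of at most 386 bp and 3.82-fold were listed.

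KDM1A (ENSG00000004487, GRCh37 chromosome 1, 23345936 to 23410182, plus strand) had compact promoter peaks in sgNeg and little else. The H3K27Ac peak (23345183 to 23346972) was 1790 bp wide with 5.73-fold enrichment and ranked 3331. It also reached a start of TEX46, which lies 0.343 kb upstream of KDM1A on the other strand. The H3K4me3 peak (GRCh38, 23019538 to 23020674) was 1137 bp wide with 11.2-fold enrichment and 53 fragments over its summit, the highest H3K4me3 fold of the 4 members, and ranked 981. In sgNpm1A no H3K4me3 peak was listed in the KDM1A region, and no H3K27Ac peak at its first 3 starts. Those H3K27Ac peaks that counted as promoter peaks were of 163 and 258 bp, more than 50 kb inside the gene at internal starts. H3K27Ac covered 3.88% of the sgNeg region and 4.50% of that in sgNpm1A, and their ratio was 1.16. In the 20 kb upstream the shares were 9.75% and 3.28%, and in the 20 kb downstream, which lie over LUZP1, 4.07% and 9.67%. For H3K4me3 the shares were 2.27% and 0.

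RCOR1 (ENSG00000089902, GRCh37 chromosome 14, 103058986 to 103196898, plus strand) had the second strongest H3K27Ac promoter peak of the members in sgNeg. It was 4432 bp wide with 8.58-fold enrichment (103056247 to 103060678) and ranked 380 of 327715 by fold, close to the 362 of GFI1. Its H3K4me3 peak (GRCh38, 102592677 to 102594446) was 1770 bp wide with 10.6-fold enrichment, beside a smaller upstream peak of 538 bp and 5.62-fold. In sgNpm1A neither mark had a peak within 1 kb of this start. The nearest H3K27Ac peak was 706 bp wide at 2.91-fold and ended 1122 bp upstream of it. Over the whole region H3K27Ac covered 8.37% in sgNeg and 5.85% in sgNpm1A, and H3K4me3 3.79% and 1.23%.

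The 20 kb downstream of RCOR1 showed another pattern than its promoter. H3K27Ac covered 18.6% of it in sgNeg and 18.4% in sgNpm1A, and H3K4me3 14.1% and 9.62%. With peaks of a q-value under 0.01 alone, the H3K27Ac shares were 2.68% in sgNeg and 14.7% in sgNpm1A, so that the near-equal shares held for all peaks only. Of the 4 sgNpm1A H3K27Ac peaks there, all overlapped a sgNeg peak, and 3 did so by at least 0.5 of the width of both peaks. For H3K4me3, 3 of the 7 sgNpm1A peaks of all member regions lay there, each overlapping a sgNeg peak to the same extent. The strongest were 748 and 718 bp wide, each at 4.32-fold with 16 fragments over the summit, and ranked 14778 of 106641 by fold. No coding gene is annotated under them.

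**Figure D2:**
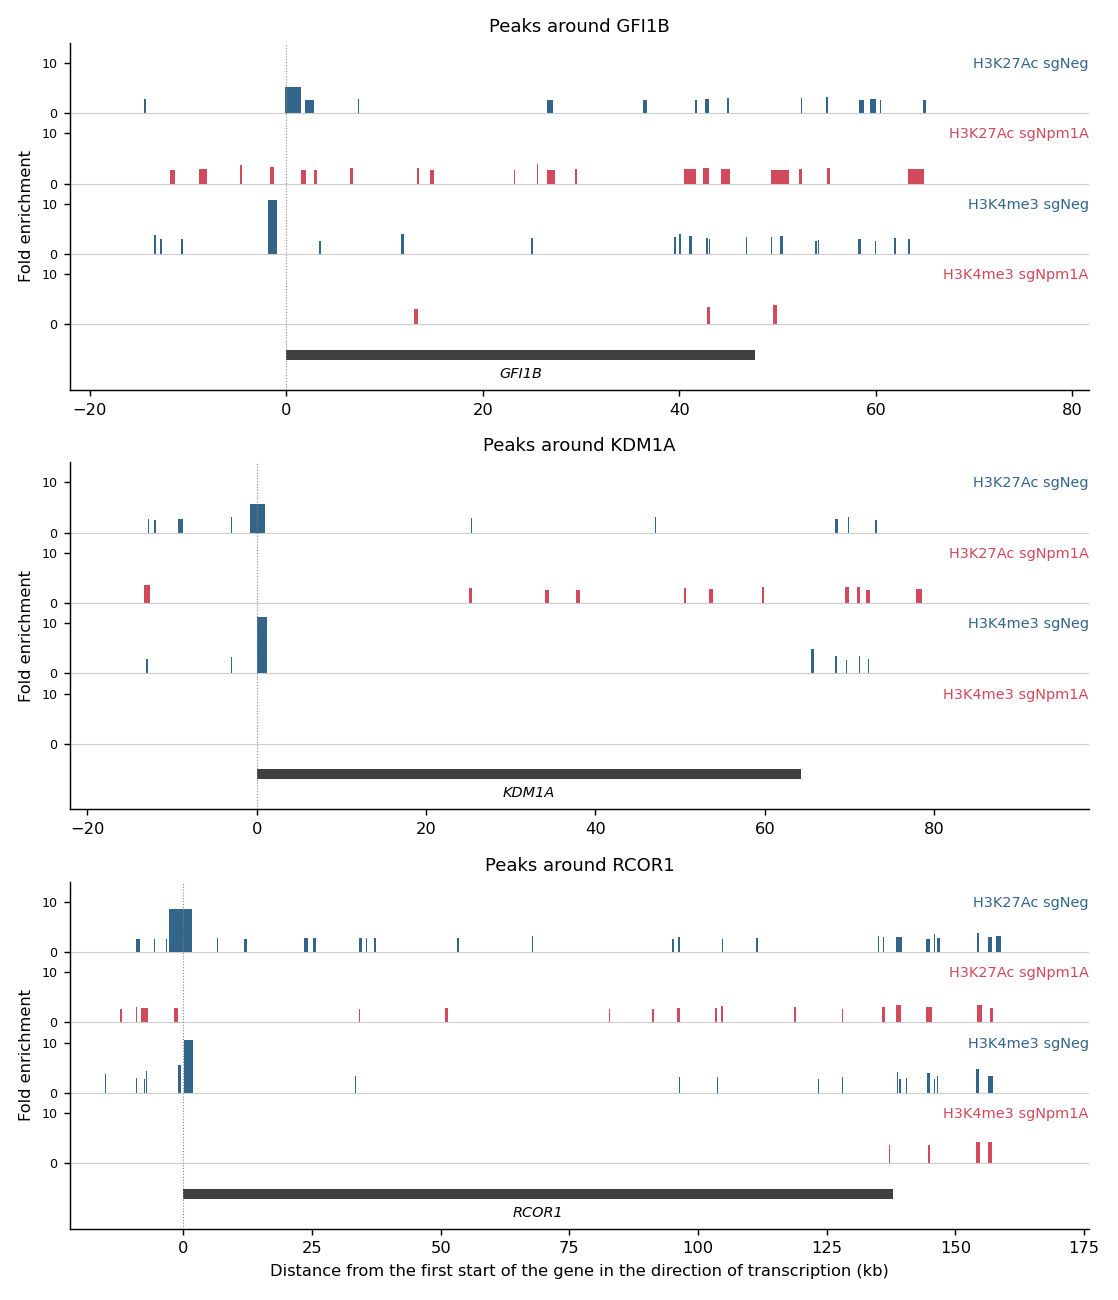
Peaks around GFI1B, KDM1A and RCOR1 in the 4 lists (1 library each), as boxes with the distance from the first start in kb along the x axis and fold enrichment as height. The tall sgNeg boxes at the starts of KDM1A and RCOR1 and just before that of GFI1B have no tall counterpart in sgNpm1A, and weak boxes downstream of RCOR1 are seen in all 4 lists.

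Counted over the 4 members, all 4 had a promoter peak of each mark in sgNeg, where 79.3% of coding genes had one for H3K27Ac and 68.3% for H3K4me3. For H3K4me3, 0 of 4 had one in sgNpm1A, where 9.49% of genes did, and a promoter peak in sgNeg alone was seen in 60.5% of genes. Of the 13438 genes with a sgNeg H3K4me3 promoter peak, 88.6% had none in sgNpm1A, so that a count of 4 of 4 is close to this background. The H3K27Ac list of sgNpm1A had a promoter peak at 4 of 4, where 57.2% of genes did, and a peak in sgNeg alone was seen in 27% of genes. Each of the 4 rested on weak peaks at internal starts. At the start of the gene record alone, all 4 had an H3K27Ac peak in sgNeg and 0 of 4 in sgNpm1A, where 69.9% and 32.4% of genes did. Of the 14060 genes with such a peak in sgNeg, 61.7% had none in sgNpm1A. For H3K4me3 at this start the counts were 4 of 4, with the GFI1B peak inside TSC1 included, and 0 of 4, against 64.7% and 7.66% of genes. Of the 12715 genes with one in sgNeg, 90.8% had none in sgNpm1A.

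By the share of the region under peaks, H3K27Ac was lower in sgNpm1A at 2 of 4 members, GFI1 and RCOR1, and higher at GFI1B and KDM1A, where 67.1% of genes were lower. With peaks of a q-value under 0.01 alone, all 4 were lower, but the share of all genes that were lower was not computed at this limit. H3K4me3 was lower at 4 of 4 members, where 93.9% of genes were lower, and all 4 were lower by at least 2-fold, as were 65.5% of genes. A share of H3K4me3 higher by at least 2-fold, which no member had, was seen in 0.905% of genes. No peak of either mark in a member region reached a q-value under 1e-05 in sgNpm1A, that is 0 of 55 for H3K27Ac and 0 of 7 for H3K4me3. Over the whole sgNpm1A lists 0.908% and 13.9% of peaks did, and in sgNeg 2.88% and 22.99%, so that counts of 0 among so few peaks are near this background. In sgNeg there were 2 such H3K27Ac peaks at GFI1 and 1 at each of the other members, and 2 to 6 such H3K4me3 peaks per member.

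**Figure D3:**
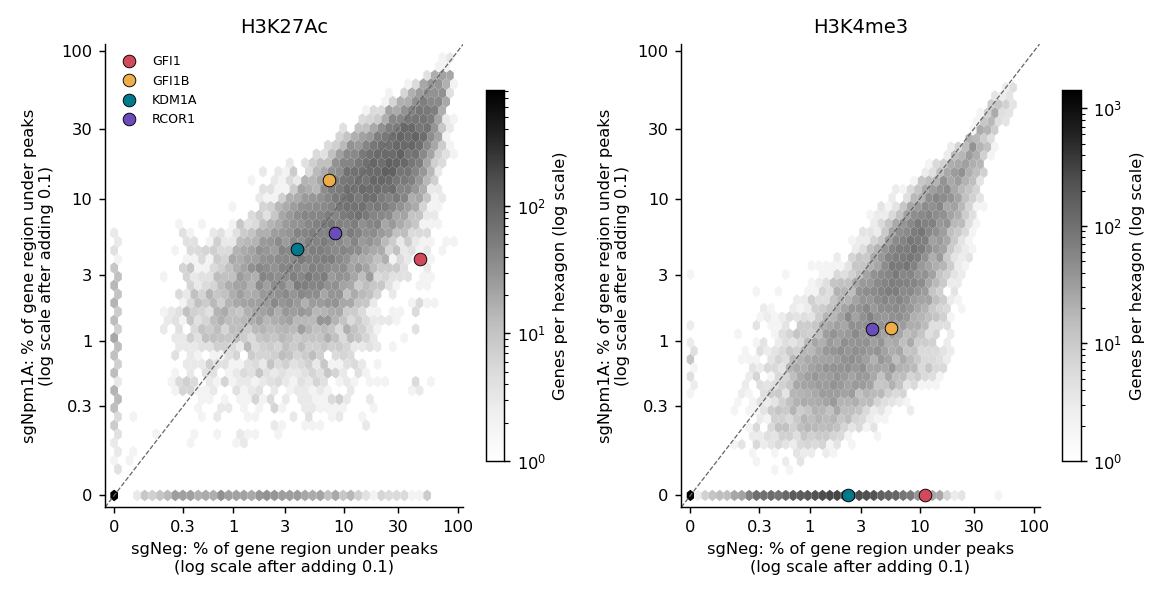
Percent of each gene region (gene body and 20 kb on either side) under peaks in sgNeg (x axis) and sgNpm1A (y axis) for all coding genes, as grey hexagons shaded by number of genes, with the 4 members as colored points (1 library per guide RNA). Axes are logarithmic after adding 0.1, and the dashed line marks equal shares. For H3K27Ac, GFI1 lies at 46.6% and 3.89%, at the lower edge of the cloud, and the other members lie near the line or, for GFI1B, above it. For H3K4me3, GFI1 and KDM1A lie at 0 in sgNpm1A.

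The members were not alike across the 4 lists. By the percentiles of their covered shares, the genes on other chromosomes closest to GFI1 among 19076 genes were HOXB8, a HOX transcription factor gene, at a Euclidean distance of 5.27 percentile points, C6orf120 at 7.60 and TNFSF12 at 8.07. HOXB8 had percentiles of 96.0 and 37.9 for H3K27Ac in sgNeg and sgNpm1A, and GFI1 93.0 and 35.9. The closest to GFI1B were MT1X (4.96), SMYD1 (5.99) and ZNF71 (6.09), those closest to KDM1A were FBXO30 (3.21), USP46 (3.24) and C1D (3.69), and those closest to RCOR1 were TTI1 (4.63), IST1 (5.25) and PAPOLG (5.57). These distances rest on 4 libraries and say only that the shares under peaks were similar.

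Genes of 16 further subunits and recruiters of the LSD1 complex were described in the same way. H3K27Ac was lower in sgNpm1A at 15 of the 16, by at least 2-fold at 8, and H3K4me3 was lower at all 16, by at least 2-fold at 12. Over all genes 67.1% and 31.5% were lower to these extents for H3K27Ac, and 93.9% and 65.5% for H3K4me3, so that the H3K4me3 counts are near the background. The median ratio was 0.471 for H3K27Ac and 0.229 for H3K4me3, beside 0.722 and 0.343 over all genes. CTBP1, a corepressor, had the highest H3K27Ac share in sgNeg at 52.1%, with 33.8% in sgNpm1A. ZNF217, a zinc finger gene whose product binds CoREST, had 47.0% in sgNeg and 0.613% in sgNpm1A, a wider gap than that of GFI1. SNAI1, another SNAG domain repressor, had 38.2% and 5.00%. Its relative SNAI2 was the gene with a higher H3K27Ac share in sgNpm1A, at 22.9% and 27.5%. For H3K4me3 the highest sgNeg shares were those of CTBP1 (14.7%), SNAI2 (13.2%) and GSE1 (8.92%), with 11.4%, 12.53% and 5.99% in sgNpm1A. The number with a promoter peak was 15 in sgNeg and 9 in sgNpm1A for H3K27Ac, and 15 and 1 (SNAI2) for H3K4me3. Over all genes the shares were 79.3% and 57.2% for H3K27Ac, and 68.3% and 9.49% for H3K4me3. The H3K27Ac count in sgNpm1A includes peaks at internal starts. The strongest such peak of HDAC1 began at 32795476, where the gene starts at 32757684. That of RCOR3 began at 211463176, where the gene starts at 211431719. How many of the 9 had a peak at the start of the gene record was not counted.

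Of the 11 genes reported from a list of targets of GFI1 or of LSD1 complexes in blood cells, H3K27Ac was lower at 11, by at least 2-fold at 7, and H3K4me3 was lower at 10, by at least 2-fold at 10. The shares of all genes were 67.1% and 31.5% for H3K27Ac, and 93.9% and 65.5% for H3K4me3. The median ratios were 0.411 and 0.205, beside 0.722 and 0.343 over all genes. HOXA9, a stem cell transcription factor gene, had 84.7% of its region under H3K27Ac peaks in sgNeg and 6.80% in sgNpm1A, and 40.7% and 0 for H3K4me3. IRF8 and SPI1, which direct monocyte and myeloid development, had 78.8% and 67.2% under H3K27Ac in sgNeg and 12.3% and 27.6% in sgNpm1A. For H3K4me3 SPI1 had 14.8% and 1.83%, and IRF8 13.8% and 3.22%. A higher share in sgNpm1A was seen for H3K4me3 at CSF1 (3.56% and 4.59%), the gene of a monocyte growth factor. Genes with a promoter peak numbered 11 and 6 for H3K27Ac and 8 and 1 for H3K4me3, with internal starts included. The H3K4me3 promoter peak in sgNpm1A was at CSF1R, which had none in sgNeg. Thus 0 of the 8 genes had one in both lists, and of all genes with one in sgNeg 88.6% had none in sgNpm1A. Over all genes the shares with a promoter peak were 79.3% and 57.2%, and 68.3% and 9.49%. Several of these genes lie in the wide sgNeg domains of a myeloid cell, and whether the difference at them has to do with GFI1 was not tested.

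**Figure D4:**
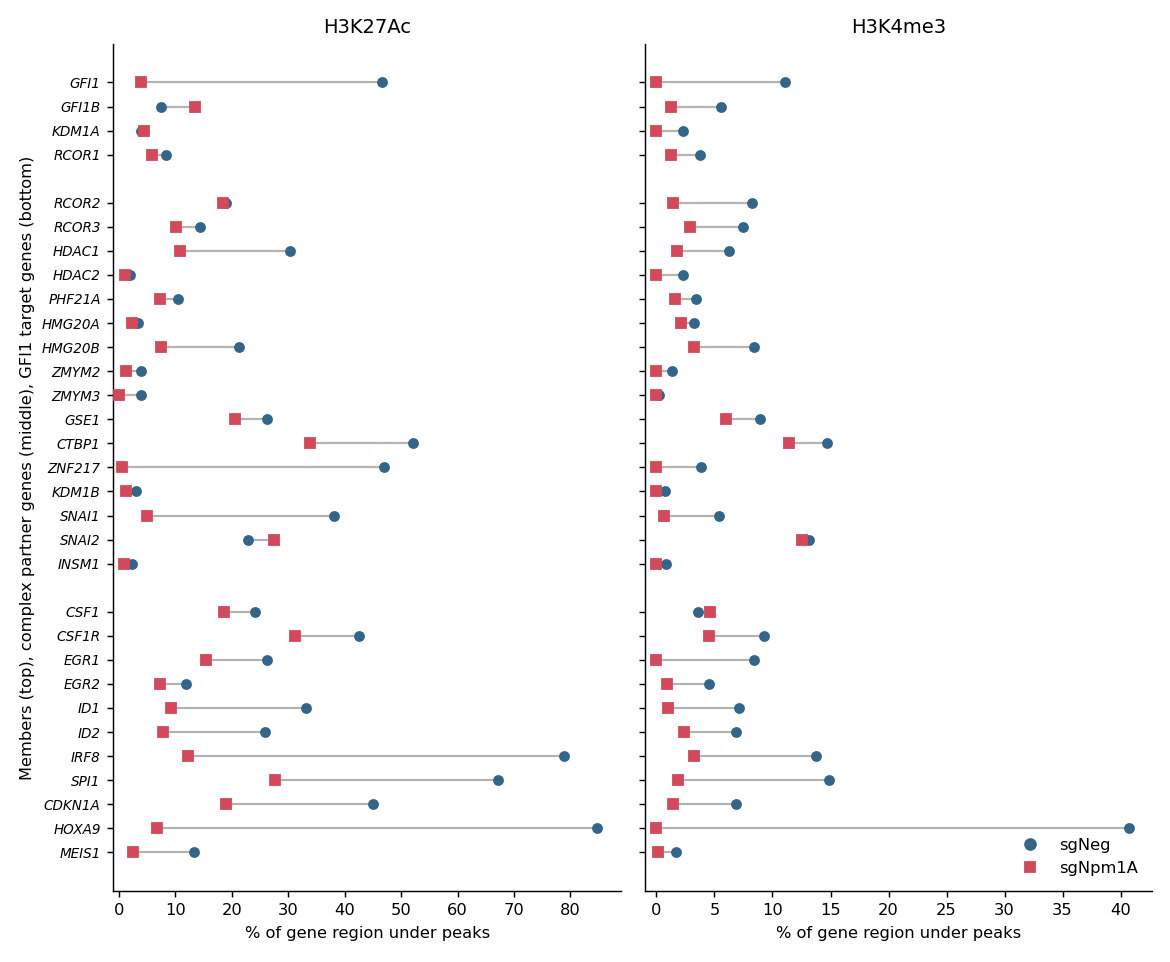
Percent of each gene region under H3K27Ac (left) and H3K4me3 (right) peaks in sgNeg (circles) and sgNpm1A (squares), 1 library each. The rows are the 4 members, 16 complex partner genes and 11 genes from the list of targets of GFI1 or of LSD1 complexes (labeled GFI1 target genes). GFI1, ZNF217, HOXA9 and IRF8 have long H3K27Ac lines, and the square lies to the right of the circle at GFI1B, KDM1A and SNAI2 for H3K27Ac and at CSF1 for H3K4me3.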

How the data were processed

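OCI-AML3 cells transfected with sgNeg or sgNpm1A gave 6 libraries in 6 groups of 1, namely H3K27Ac, H3K4me3 and input for each guide RNA, grouped by sample title. Per the labels, chromatin was crosslinked, immunoprecipitated and tagmented with Tn5. The submitters' processing notes name bcl2fastq 2.17, Trimmomatic 0.33, Bowtie 1.1.2, MACS2 2.1.0, deepTools and hg38, without their settings. The authors called peaks per library, narrow ones for H3K4me3 and broad ones for H3K27Ac. The deposited fold, a ratio of the observed to the expected pileup, and the deposited −log10 p-values and −log10 q-values are given for each peak. The deposited score, a rounded −log10 q-value, was not used. The authors' summit offset in the H3K4me3 lists gave the summits.

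Peaks on chromosome 1 end at 249218478 in the sgNeg H3K27Ac list, beyond that chromosome in hg38, and peaks on chromosome 17 end at 83201881 in a H3K4me3 list, beyond it in hg19. H3K27Ac was thus read on GRCh37 with GENCODE version 44 (146258 starts) and H3K4me3 on GRCh38 with RefSeq tables (28018 starts). Nothing was converted. Overlaps needed 1 bp, and the covered share merges overlapping peaks. The H3K4me3 background was inferred from the steps between fold values, and H3K4me3 pileups were recovered as whole numbers, within 0.05, for 100% of peaks. The H3K27Ac background was inferred from the fold and p-value of the peaks of lowest fold, without such a check. No test was run, as each group had 1 library, and the depth in reads is unknown. Python 3.11.15, pandas 2.3.3, numpy 2.4.6, scipy 1.17.1 and matplotlib 3.10.9 were used, and coverage was checked on simulated peaks and with bedtools 2.31.1.

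The members and gene lists were chosen with earlier results of these data known. The 4 members were always named. The list of target genes held 1 further gene, which is not reported here, so that its counts and medians cover 11 genes and not the whole list. Of the partner and target genes, the 3 with the highest sgNeg share per mark were named, and up to 3 that were higher in sgNpm1A. For each member the 3 most similar genes on other chromosomes were named. ZNF217, SNAI1 and SPI1 fell under these rules. Alternatives were q-value, fold and rank limits, other flanks and promoter widths, stitching over 5 kb, and, added after seeing the data, the start of the gene record alone for H3K4me3.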

Additional observations from a re-analysis of the deposited data

How the results depend on the processing

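With 1 library per group, no replicate could be left out. No paired analysis was possible because no group had a replicate. H3K27Ac was lower in sgNpm1A at 2 of 4 members with all peaks, but at 4 with a q-value under 0.01, a q-value under 1e-05, a fold of at least 4, or the 20000 peaks of lowest p-value of each list. An H3K27Ac promoter peak in sgNpm1A was found at 4 members with all starts, but at 0 with a q-value under 1e-05, a fold of at least 4, the 20000 peaks of lowest p-value, or the start of the gene record alone. The limits leave fewer peaks by construction, and the last setting leaves fewer starts. With a q-value under 1e-05 or a fold of at least 4, no sgNpm1A H3K27Ac peak was left in any member region. Both counts were thus fixed under these settings and say nothing further about the members. How many of all genes had a lower share was not computed at any of the limits. The other 44 member and partner counts recomputed under an alternative were within 1.5 times of the main count, including the setting for H3K4me3 starts added after seeing the data. Of 100 GFI1 shares, member ranks and promoter peak percentiles under an alternative, 79 moved beyond the 95% Wilson interval of the main value and 21 did not. That interval served only as a yardstick for the size of a shift and does not measure a spread between libraries. The H3K27Ac rank of GFI1 in sgNeg was 1406 with 20 kb flanks, 1866 with 10 kb and 3479 with 50 kb, and its H3K4me3 rank was 3151, 1667 and 7438. The lowest listed H3K4me3 peak had 11 fragments in sgNeg and 10 in sgNpm1A, and weaker signal is not seen in either list.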
